A study of Homo sapiens with 15 samples.

Results

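The expression of 10 genes of the NF-κB pathway was followed in human tumour cells growing in mice. They are the subunit genes NFKB1, NFKB2 and RELB, the inhibitor and cofactor genes NFKBIA, NFKBIZ, BCL3 and TNFAIP3, and the target genes BIRC3, TRAF1 and ICAM1. They were chosen by name, with earlier results of these data known. All 10 were found among the 60649 human genes of the count table and among the 15435 human genes with enough counts to test. The tumours came from A549, an established line of human lung adenocarcinoma cells, which were injected under the skin of BALB/c nude mice, animals without mature T cells. Mice of the stress group (n = 5) were restrained, a common way to stress rodents, and the labels place this 7 days before the cells were given. For the post-stress group (n = 5) the labels place it 12 days after. Mice of the no-stress group (n = 5) were left unrestrained. It is not stated whether 7 and 12 days are lengths of restraint or the day it began, and neither age nor sex is given. All tumours derive from the same cell line, and each gave 1 library.

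NF-κB is a family of dimeric transcription factors that are held in the cytoplasm by inhibitors until a signal, such as an inflammatory cytokine, lets them enter the nucleus. Many of the genes they switch on encode members of the pathway itself, among them the inhibitors that end the response, so that mRNA levels of these feedback genes are often read as a record of recent NF-κB activity. In lung epithelial cells the same factors drive chemokines, adhesion molecules and inhibitors of apoptosis.

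Human counts per library ranged from 12877165 to 15892705. The share of all counts that fell on mouse genes, which come from host cells in the tumour piece, ranged from 18.6% to 24.6% in stress tumours, from 12.4% to 23.0% in post-stress tumours and from 15.6% to 30.2% in no-stress tumours. Levels are given as CPM, counts per 1000000 human counts of the library after TMM scaling. Of 8 epithelial and A549 marker genes, 7 were detected above 1 CPM in all libraries (AKR1B10, a reductase abundant in A549 cells, at 2965 to 5485 CPM), and KRT19 stayed under 1 CPM. Among human rows of 13 leukocyte genes, NCR1 had no count in any library, and PTPRC, which encodes the pan-leukocyte antigen CD45, had at most 2 counts. The summed level of these 13 genes was 212 to 245 CPM in stress tumours, 109 to 503 CPM in post-stress tumours and 180.1 to 1336 CPM in no-stress tumours, of which S100A8 and S100A9 made up nearly all. In 12 endothelial, fibroblast and blood genes it was 127 to 180.4 CPM in stress tumours, 91.2 to 227 CPM in post-stress tumours and 116 to 212 CPM in no-stress tumours. Whether mouse reads were counted on these human rows was not tested. In such bulk tissue a change in the number of cells that express a gene and a change in RNA per cell cannot be told apart.

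Motifs for NF-κB lie near the start of most of the 10 genes. In windows from 250 bases before to 50 bases after each annotated start, 7 of the 9 members present in RefSeq's promoter table (GRCh38.p14) had at least 1 match to the 10-base κB consensus on either strand, the binding motif of NF-κB dimers. A match was present in 11.3% of all 35116 promoters of this length there, and in 13.3% of the 27305 genes they belong to. Of the 15 member promoters, 9 had a match and 6 had none, among them those of TRAF1 and ICAM1. Members with several promoters have several chances of a match, and a match is a string of letters, not a measured binding site. Shown, as examples from each role, are the stretches before the start, cut where they met an exon of the gene in GENCODE 29. They come from the inhibitor NFKBIA (chr14:35404750-35404999, minus strand), the nuclear cofactor NFKBIZ (chr3:101827740-101827989, plus strand) and the target BIRC3 (chr11:102317234-102317449, plus strand), each called higher in stress tumours. NFKB1 (chr4:102501109-102501328, plus strand) is shown as a gene with a match whose level was not called different between groups. TNFAIP3 and BCL3 also had a match and were not called. TRAF1 and ICAM1, without a match, were called higher in stress tumours, so a match and a call did not go together. Sequences run 5′ to 3′ on the gene's strand, and capitals mark the matches.
NFKBIA: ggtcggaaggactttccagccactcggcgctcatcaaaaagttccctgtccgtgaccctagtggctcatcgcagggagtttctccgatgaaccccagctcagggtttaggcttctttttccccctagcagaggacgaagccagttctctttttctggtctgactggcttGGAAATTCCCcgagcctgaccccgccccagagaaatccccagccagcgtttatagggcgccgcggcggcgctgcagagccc
NFKBIZ: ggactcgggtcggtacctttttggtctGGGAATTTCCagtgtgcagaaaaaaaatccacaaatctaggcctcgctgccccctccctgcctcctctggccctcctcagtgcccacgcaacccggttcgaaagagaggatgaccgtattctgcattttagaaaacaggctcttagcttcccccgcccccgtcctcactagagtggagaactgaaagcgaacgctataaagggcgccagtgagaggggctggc
BIRC3: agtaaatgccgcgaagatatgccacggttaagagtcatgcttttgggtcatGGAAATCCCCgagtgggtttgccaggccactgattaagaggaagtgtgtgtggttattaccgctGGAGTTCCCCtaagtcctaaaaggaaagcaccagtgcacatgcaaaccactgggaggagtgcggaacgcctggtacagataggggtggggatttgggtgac
NFKB1: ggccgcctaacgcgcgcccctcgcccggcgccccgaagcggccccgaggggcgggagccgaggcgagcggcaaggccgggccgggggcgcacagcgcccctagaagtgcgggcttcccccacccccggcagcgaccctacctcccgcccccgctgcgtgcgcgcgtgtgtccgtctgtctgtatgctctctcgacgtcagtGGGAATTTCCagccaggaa

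Per length of transcript the inhibitor gene NFKBIA was the most abundant of the 10 and the adaptor gene TRAF1 the least. On a scale of CPM per kilobase of annotated exons, NFKBIA stood at 51 ± 7.66 in stress, 43.8 ± 9.14 in post-stress and 29.2 ± 10.3 in no-stress tumours (SD, n = 5 each). BCL3, which encodes a nuclear IκB protein, came next, with 33.4 ± 4.23 in stress, 31.4 ± 4.91 in post-stress and 27.5 ± 5.86 in no-stress tumours. NFKB2 and BIRC3 followed, with 24.5 ± 3.95 and 21.7 ± 7.28 in stress tumours and 16.3 ± 3.19 and 9.27 ± 2.26 in no-stress tumours. In the middle lay RELB, NFKB1, TNFAIP3 and NFKBIZ, between 6.93 and 11.6 on average in stress tumours and between 4.55 and 7.49 in no-stress tumours. ICAM1 (3.27 ± 0.900 in stress, 2.64 ± 0.548 in post-stress and 1.78 ± 0.614 in no-stress tumours) and TRAF1 (2.52 ± 0.513 in stress, 1.86 ± 0.443 in post-stress and 1.37 ± 0.308 in no-stress tumours) were lowest. Ranges of neighbours in this order overlapped in all groups for RELB and NFKB1 or TNFAIP3, for TNFAIP3 and NFKBIZ or NFKB1, and for ICAM1 and TRAF1. In all 3 groups NFKBIZ lay above ICAM1 without overlap. The ranges of NFKBIA and BCL3 were apart in stress tumours and overlapped in the other groups. Those of BCL3 and NFKB2 were apart in no-stress tumours alone, and those of NFKB2 and BIRC3 overlapped in stress tumours alone.

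In stress tumours 7 of the 10 NF-κB genes were higher than in no-stress tumours and none was lower (edgeR quasi-likelihood test with p adjusted by Benjamini-Hochberg over all human genes tested, threshold 0.05). Of all human genes tested 5.23% were called higher and 10.5% in either direction. Those called were NFKB2, RELB, NFKBIA, NFKBIZ, BIRC3, TRAF1 and ICAM1, at 1.5-fold to 2.34-fold of the no-stress level. TNFAIP3, NFKB1 and BCL3 did not pass. The median log2 fold change of the 10 genes, which were chosen with earlier results known, was 0.72, against −0.01 for all human genes tested. In 3 of the 10 genes, NFKB2, BIRC3 and TRAF1, every stress tumour lay above every no-stress tumour, which was so for 4.09% of all genes tested. No-stress replicate 3 was the lowest of its group for 9 of the 10 genes. Without it 4 genes were called, as also without no-stress replicate 1 or 4 or stress replicate 3, and 3 were called without stress replicate 1 or 5. With human and mouse counts scaled together 2 were called, BIRC3 and TRAF1, and with no filter on low counts 4. Calls over all human genes fell from 1613 to 864, 661, 1358 and 1043 without no-stress replicate 3, 1 or 4 or stress replicate 3. They fell to 782 and 1072 without stress replicate 1 or 5, to 124 with both species scaled together and to 1200 with no filter.

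**Figure D1:**
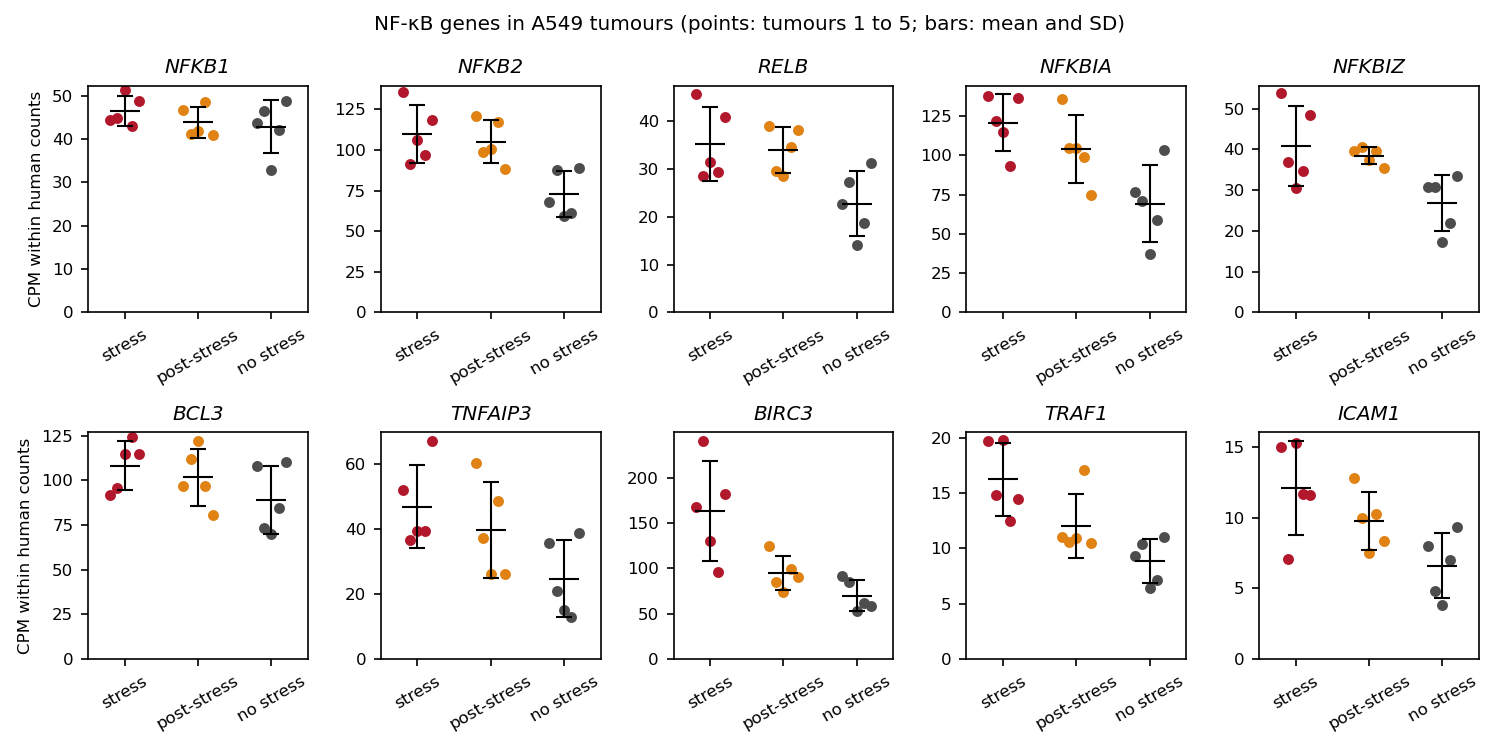
Levels of the 10 NF-κB genes in CPM within human counts (vertical axes, from 0), 1 panel a gene, with 5 stress, 5 post-stress and 5 no-stress tumours as points and the mean and SD as bars. BIRC3 stands highest in stress tumours (95.3 to 240.2 CPM, against 52.8 to 91.1 CPM in no-stress tumours), while the points of NFKB1 overlap in all 3 groups, with a low no-stress tumour at 32.9 CPM.

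Among the subunits, NFKB2 and RELB were higher in stress tumours and NFKB1 was not called. NFKB2, on chromosome 10 (102394110 to 102402529, plus strand, GENCODE 29 on GRCh38), encodes the precursor p100, which is processed to p52 in the alternative branch of the pathway. NFKB2 had 136, 91.5, 106, 97 and 119 CPM in the 5 stress tumours, 121, 99, 101, 117 and 88.6 CPM in the 5 post-stress tumours, and 67.7, 87.7, 59.3, 61.5 and 88.9 CPM in the 5 no-stress tumours. The lowest stress tumour was above the highest no-stress tumour, and the lowest post-stress tumour lay just under the highest no-stress tumour. NFKB2 was 1.5-fold higher in stress than in no-stress tumours (log2 fold change 0.59, SE 0.13, adjusted p = 0.0125, edgeR).

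RELB, on chromosome 19 (45001430 to 45038198, plus strand), encodes the partner of p52. Its levels were 45.8, 28.4, 31.4, 29.3 and 40.9 CPM in the 5 stress tumours, 39.1, 29.6, 28.5, 34.5 and 38.1 CPM in the 5 post-stress tumours, and 22.6, 27.2, 14.1, 18.7 and 31.2 CPM in the 5 no-stress tumours. Stress and no-stress tumours overlapped, with no-stress replicate 5 above 2 of the stress tumours, and no-stress replicate 3 was the lowest of all 15. RELB was 1.55-fold higher in stress than in no-stress tumours (log2 fold change 0.63, SE 0.19, adjusted p = 0.0475, edgeR). Leaving out single tumours ended this call in 11 of 15 cases (adjusted p 0.0513 to 0.121), the exceptions being no-stress tumours 2 and 5 and stress tumours 2 and 4. It also ended when only stress and no-stress libraries were fitted (adjusted p = 0.0835) and with no filter on low counts (adjusted p = 0.146).

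NFKB1, on chromosome 4 (102501329 to 102617302, plus strand), encodes p105 and its product p50, a subunit of the classical heterodimer. NFKB1 had 44.3, 44.8, 51.3, 43.1 and 48.8 CPM in the 5 stress tumours, 46.8, 41.1, 41.9, 48.5 and 40.8 CPM in the 5 post-stress tumours, and 43.8, 46.4, 32.9, 42 and 48.9 CPM in the 5 no-stress tumours. The 3 groups overlapped almost wholly. The log2 fold change of NFKB1 in stress against no-stress tumours was 0.12, with a 95% confidence interval of −0.08 to 0.32 (adjusted p = 0.463, edgeR).

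Of the 4 genes that restrain or modify NF-κB, NFKBIA and NFKBIZ were called higher in stress tumours and TNFAIP3 and BCL3 were not. NFKBIA, on chromosome 14 (35401511 to 35404749, minus strand), encodes IκBα, the inhibitor that is degraded when the pathway is switched on and made anew as a direct target. NFKBIA had 138, 122, 115, 93.5 and 137 CPM in the 5 stress tumours, 136, 105, 105, 99 and 74.9 CPM in the 5 post-stress tumours, and 76.6, 70.6, 37.3, 58.6 and 104 CPM in the 5 no-stress tumours. Stress tumours other than replicate 4 lay above all no-stress tumours, the highest of which was replicate 5. NFKBIA was 1.75-fold higher in stress than in no-stress tumours (log2 fold change 0.80, SE 0.22, adjusted p = 0.0347, edgeR). Leaving out no-stress tumour 1, 2 or 4 or stress tumour 1, 2, 3 or 5 ended the call (adjusted p 0.0565 to 0.0828), as did a fit of only these 2 groups (adjusted p = 0.0551).

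NFKBIZ, on chromosome 3 (101827991 to 101861022, plus strand), encodes IκBζ, a nuclear cofactor needed for secondary NF-κB targets such as IL6. NFKBIZ had 53.8, 36.9, 30.6, 34.7 and 48.5 CPM in the 5 stress tumours, 39.5, 40.5, 37.5, 39.5 and 35.4 CPM in the 5 post-stress tumours, and 30.7, 30.8, 17.3, 21.8 and 33.5 CPM in the 5 no-stress tumours. All stress tumours but replicate 3 lay above the no-stress range. NFKBIZ was 1.52-fold higher in stress than in no-stress tumours (log2 fold change 0.61, SE 0.17, adjusted p = 0.0364, edgeR). Leaving out no-stress tumour 1, 3 or 4 or stress tumour 1 or 5 ended the call (adjusted p 0.0562 to 0.0964), as did a fit of only these 2 groups (adjusted p = 0.0833).

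TNFAIP3, on chromosome 6 (137867188 to 137883312, plus strand), encodes A20, a ubiquitin-editing enzyme that shuts off signalling upstream of the IκB kinase. TNFAIP3 had 51.9, 36.5, 39.3, 39.4 and 66.9 CPM in the 5 stress tumours, 60.3, 37.2, 26.2, 48.6 and 26.2 CPM in the 5 post-stress tumours, and 35.5, 20.9, 14.9, 13 and 38.6 CPM in the 5 no-stress tumours. Its spread was wide in every group, and no-stress replicates 1 and 5 stood well above the other 3 no-stress tumours. The mean in stress tumours was 46.8 ± 12.7 CPM and in no-stress tumours 24.6 ± 11.8 CPM (SD, n = 5 each), a difference that did not pass (log2 fold change 0.93, SE 0.34, adjusted p = 0.0947, edgeR; 95% interval 0.21 to 1.65). It passed in limma-voom (adjusted p = 0.0366) and with the mouse share as a covariate (adjusted p = 0.0388).

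BCL3, on chromosome 19 (44747705 to 44760044, plus strand), encodes a nuclear IκB protein that binds p50 and p52 dimers. BCL3 had 92, 95.9, 115, 124 and 115 CPM in the 5 stress tumours, 96.8, 112, 122, 96.7 and 80.8 CPM in the 5 post-stress tumours, and 108, 73.2, 70.1, 84.5 and 110.3 CPM in the 5 no-stress tumours. The groups overlapped, and its log2 fold change in stress against no-stress tumours was 0.28 (95% interval −0.01 to 0.57, adjusted p = 0.213, edgeR).

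The 3 target genes were all called higher in stress tumours, with BIRC3 changed most of the 10 genes. BIRC3, on chromosome 11 (102317450 to 102339403, plus strand), encodes the apoptosis inhibitor cIAP2, a ubiquitin ligase of TNF receptor complexes. BIRC3 had 168, 240.2, 130.3, 95.3 and 182 CPM in the 5 stress tumours, 124, 85.3, 73.6, 99.4 and 90.7 CPM in the 5 post-stress tumours, and 91.1, 84.5, 52.8, 62 and 58 CPM in the 5 no-stress tumours. Stress replicate 2 was the highest of all tumours, and the lowest stress tumour, replicate 4, was still above each no-stress tumour. BIRC3 was 2.34-fold higher in stress than in no-stress tumours (log2 fold change 1.23, SE 0.23, adjusted p = 0.00679, edgeR), and the call held whichever of the 15 tumours was left out (adjusted p up to 0.0204).

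TRAF1, on chromosome 9 (120902393 to 120929173, minus strand), encodes an adaptor that joins cIAP proteins to TNF receptors. TRAF1 had 19.6, 14.8, 19.8, 12.4 and 14.5 CPM in the 5 stress tumours, 11, 10.5, 10.9, 17.1 and 10.5 CPM in the 5 post-stress tumours, and 9.27, 10.4, 6.44, 7.16 and 11 CPM in the 5 no-stress tumours. No stress tumour overlapped the no-stress range, and post-stress replicate 4 stood apart from the other 4 of its group. TRAF1 was 1.84-fold higher in stress than in no-stress tumours (log2 fold change 0.88, SE 0.18, adjusted p = 0.00784, edgeR), and its call also held whichever tumour was left out (adjusted p up to 0.025).

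ICAM1, on chromosome 19 (10270835 to 10286615, plus strand), encodes the adhesion molecule to which leukocyte integrins bind. It was the scarcest gene of the 10 by counts, with 62 to 227 counts a library. ICAM1 had 15, 7.04, 15.3, 11.7 and 11.6 CPM in the 5 stress tumours, 12.8, 9.99, 7.5, 10.2 and 8.34 CPM in the 5 post-stress tumours, and 8.01, 4.79, 3.84, 7.02 and 9.37 CPM in the 5 no-stress tumours. Stress replicate 2 fell within the no-stress range and the other 4 stress tumours lay above it. ICAM1 was 1.84-fold higher in stress than in no-stress tumours (log2 fold change 0.88, SE 0.24, adjusted p = 0.0298, edgeR). Leaving out no-stress tumour 2 or 3 or stress tumour 1, 3 or 5 ended the call (adjusted p 0.0512 to 0.0789).

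In post-stress tumours none of the 10 genes was called against no-stress tumours (edgeR), where 0.842% of all human genes tested were called in either direction and 0.596% higher, although all 10 had positive log2 fold changes. Their median was 0.52, against −0.01 for all genes tested. At an unadjusted p under 0.05, 6 of the 10 were higher, as were 1177 of the 15435 genes tested. DESeq2's Wald test called NFKB2 higher (adjusted p = 0.0109), and limma-voom called none of the 10. Since stress and post-stress tumours were compared with the same 5 no-stress tumours, the signs of both comparisons are not separate observations.

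NFKB2 came nearest to the threshold in post-stress tumours, at 105 ± 13.4 CPM, against 73 ± 14.3 CPM in no-stress tumours (SD, n = 5 each; log2 fold change 0.53, SE 0.13, adjusted p = 0.0696, edgeR). The adjusted p was 0.0432 without no-stress replicate 5. RELB averaged 34 ± 4.84 CPM in post-stress and 22.7 ± 6.76 CPM in no-stress tumours (log2 fold change 0.58, SE 0.19, adjusted p = 0.163, edgeR). NFKBIZ was the gene of the 10 whose 5 post-stress tumours all lay above every no-stress tumour, which was so for 1.57% of all genes tested. It averaged 38.5 ± 2.07 CPM in post-stress and 26.8 ± 6.9 CPM in no-stress tumours (log2 fold change 0.52, SE 0.17, adjusted p = 0.165, edgeR). The log2 fold changes of NFKBIA, TNFAIP3 and ICAM1 were 0.58, 0.69 and 0.57 (edgeR adjusted p = 0.227, 0.35 and 0.272). BIRC3 and TRAF1, the genes with the clearest differences in stress tumours, had log2 fold changes of 0.44 and 0.44 in post-stress tumours (95% intervals −0.05 to 0.93 and 0.05 to 0.83). NFKB1 and BCL3 had 0.03 and 0.19.

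Set directly against post-stress tumours, stress tumours showed no called difference in the 10 genes (edgeR), in a comparison in which 0.0389% of all human genes tested, 6 genes, were called in either direction and 0.0259% higher. At an unadjusted p under 0.05, BIRC3 and TRAF1 were higher, as were 887 of the 15435 genes tested. BIRC3 had 168, 240.2, 130.3, 95.3 and 182 CPM in stress tumours and 124, 85.3, 73.6, 99.4 and 90.7 CPM in post-stress tumours. All stress tumours but replicate 4 lay above the post-stress range. The log2 fold change of BIRC3 was 0.79 (95% interval 0.29 to 1.28, adjusted p = 0.193, edgeR), and it passed in DESeq2's Wald test (adjusted p = 0.0248) and without stress replicate 4 (adjusted p = 0.0394, edgeR). TRAF1 had a log2 fold change of 0.44 (95% interval 0.06 to 0.82, adjusted p = 0.362, edgeR). For the other 8 genes the intervals spanned 0, from −0.12 to 0.29 for NFKB1 to −0.47 to 0.95 for TNFAIP3.

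**Figure D2:**
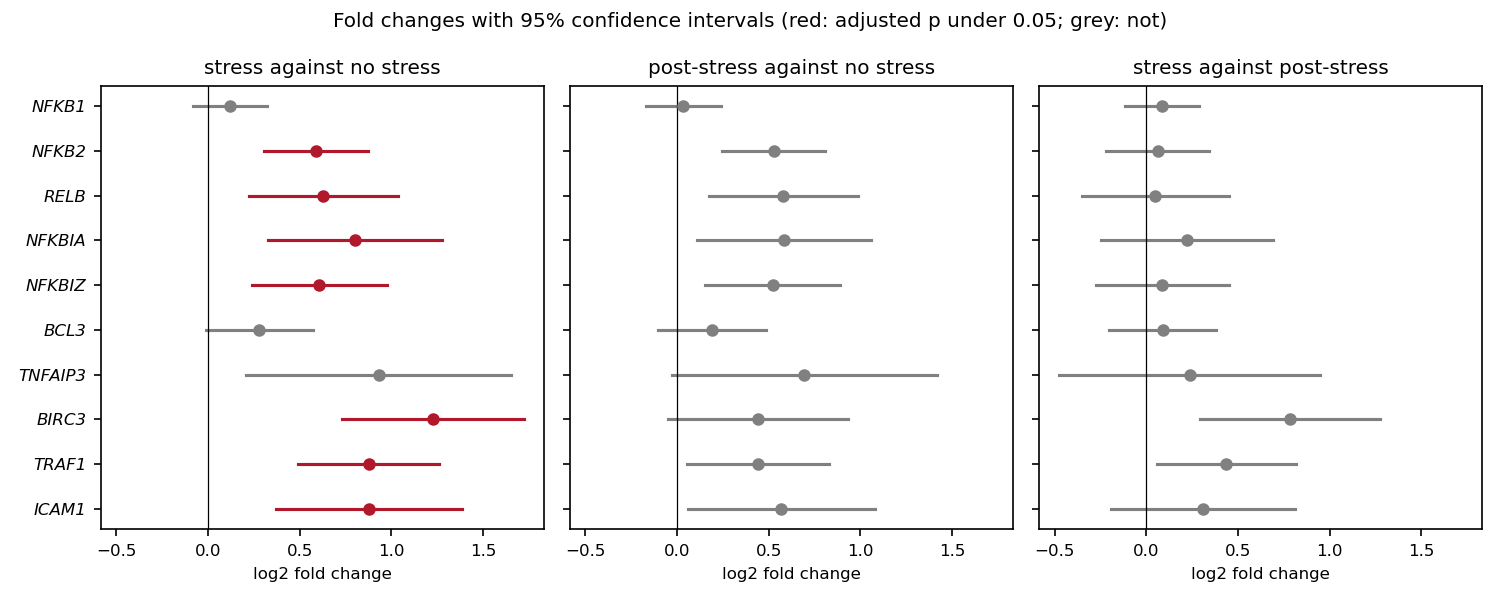
Log2 fold changes (horizontal axis) of the 10 NF-κB genes in 3 panels (stress tumours against no stress, post-stress tumours against no stress, and the restrained groups against each other), as points with 95% confidence intervals, red where the adjusted p was under 0.05. The 7 red genes are all in the first panel, led by BIRC3 at 1.23, and in the third panel the intervals of BIRC3 and TRAF1 lie above 0.

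The levels of most of the 10 genes varied together from tumour to tumour, those of BIRC3 and BCL3 less so. Over the 15 tumours the likeness (Pearson's r of log2 CPM) of the 45 gene pairs ran from 0.24 to 0.92 with a median of 0.73. With group means removed it ran from −0.28 to 0.85 with a median of 0.55, and 43 pairs were above 0. RELB was most like NFKBIZ (0.92, or 0.85 with group means removed) and NFKB2 (0.92 and 0.82). With group means removed the lowest values were those of BIRC3 with BCL3 (−0.28) and ICAM1 (−0.05) and of BCL3 with RELB (0.07). These values are descriptions over tumours that share their library scaling, and pairs of other genes were not looked at. No-stress replicate 3, the lowest of its group for 9 of the 10 genes, is part of them. The mean z score of the 10 genes over the 15 tumours was 1.04, 0.31, 0.71, 0.24 and 1.03 in stress tumours, 0.65, 0.10, −0.03, 0.52 and −0.29 in post-stress tumours, and −0.38, −0.62, −2.10, −1.26 and 0.08 in no-stress tumours. The stress tumours lay above all no-stress tumours, and the post-stress tumours overlapped both other groups. As the members were chosen with earlier results known, no test is given for this score.

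**Figure D3:**
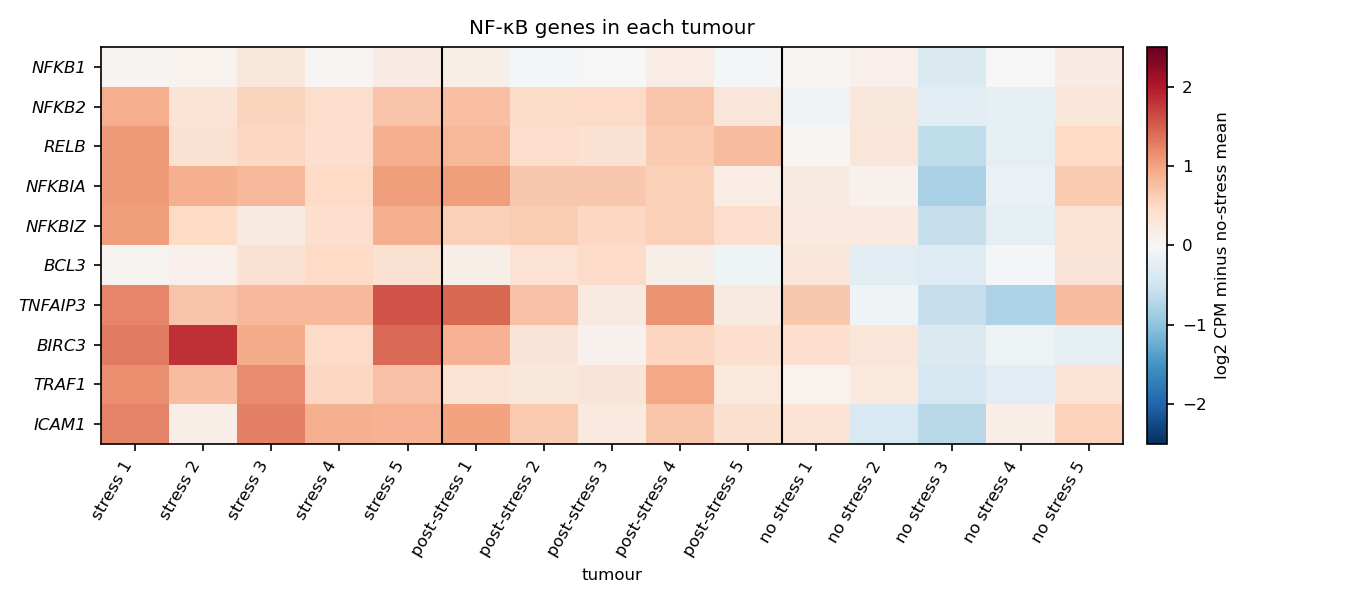
Log2 CPM of each NF-κB gene (rows) minus its mean in no-stress tumours, for each of the 15 tumours (columns: stress, post-stress, no stress), red above and blue below that mean. No-stress replicate 3 is blue for nearly every gene, and the darkest red cell is BIRC3 in stress replicate 2, the tumour with 240.2 CPM.

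Among other human genes tested, those with the most similar course over the 15 tumours to this mean z score were MIDN (0.91), NOD2 (0.90), SEMA4A (0.89), SLC25A37 (0.89), CSRNP1 (0.88), MT1X (0.88), CDCP1 (0.88) and SLCO4A1 (0.88), each with its Pearson's r as the measure of likeness. With group means removed the same 8 genes had values of 0.68 to 0.84. MT1X is one of several near-identical metallothionein genes, so that its count is uncertain. In stress against no-stress tumours SLC25A37, SEMA4A, CSRNP1, MT1X, CDCP1 and SLCO4A1 were called higher (log2 fold changes 0.53 to 1.99; edgeR adjusted p 0.00341 to 0.0488), and MIDN and NOD2 were not (adjusted p = 0.0865 and 0.0554). In post-stress against no-stress tumours SLC25A37 and MT1X were called higher (log2 fold changes 0.58 and 1.54; adjusted p = 0.0275 and 0.0468). Of all human genes tested, 5.23% were called higher in stress and 0.596% in post-stress against no-stress tumours. The 8 genes were picked for their likeness to the score over these same tumours, so their calls are not separate observations.

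Over all 15 tumours the mean z score and the mouse share had a Pearson's r of 0.157, given as a description. Within the no-stress group the 2 measures ran together. The mouse share there was 30.2%, 20.5%, 15.6%, 17.6% and 29% in replicates 1 to 5, and the 3 tumours with the lowest shares had the 3 lowest mean z scores. In the stress group the share was 20.8%, 18.6%, 19.4%, 21.8% and 24.6%, and in the post-stress group 12.4%, 15.4%, 14.6%, 23.0% and 22.7%. Post-stress replicate 1, with the lowest share of all tumours, had the highest z score of its group. With the mouse share as a covariate in the fit, 8 of the 10 genes were called higher in stress than in no-stress tumours (the same 7 and TNFAIP3), while 1469 of all human genes were called, and none of the 10 was called in post-stress tumours. Without no-stress replicates 1 and 5 together, the tumours with the highest mouse share, 9 were called in stress tumours, all but NFKB1, while 546 of all human genes were called, against 1613 with all libraries. With that pair left out the log2 fold change of TNFAIP3 was 1.52 (adjusted p = 0.0264) and that of BCL3 0.51 (adjusted p = 0.0462, edgeR). This setting was chosen after seeing the data. The pair also had the highest mean z scores of the no-stress group, so leaving it out lowers that group's mean score. The count of 9 is therefore not a separate observation.

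**Figure D4:**
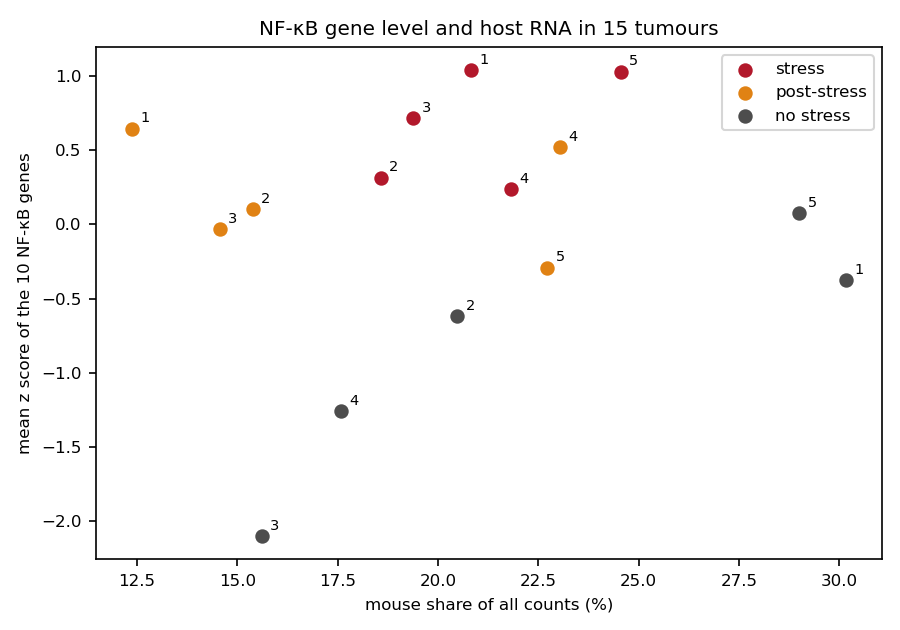
Mean z score of the 10 NF-κB genes (vertical axis) against the share of all counts on mouse genes in % (horizontal axis) in each tumour, numbered by replicate. The 5 no-stress tumours run from −2.10 at 15.6% to 0.08 at 29%, whereas stress tumours lie between 0.24 and 1.04 at shares of 18.6% to 24.6%.

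Among other NF-κB signalling genes a larger share was called higher in stress tumours than among all genes tested. The share called lower was near that of all genes. Of 44 other signalling genes, which encode receptors, adaptors, kinases, further subunits and inhibitors, 39 were tested. In stress against no-stress tumours 7 were called higher and 2 lower (17.9% and 5.13% of those tested, where 5.23% and 5.22% of all genes were called), and the median log2 fold change was 0.08. Leaving out no-stress tumour 1 changed the count of 9 to 4, no-stress tumour 3 to 2, stress tumour 1 to 2 and stress tumour 5 to 5. Over all human genes the 1613 calls became 661, 864, 782 and 1072 in the same fits. With human and mouse counts scaled together the signalling count was 0, while 124 of all human genes were called. None was called in post-stress against no-stress tumours or in stress against post-stress tumours (edgeR), where 13 and 6 of the 39 had an unadjusted p under 0.05, as did 2341 and 1716 of all 15435 genes tested.

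TRAF3, an adaptor that holds the alternative pathway off by directing the destruction of the kinase NIK, had 47.7, 45.5, 63, 62.9 and 45.3 CPM in stress tumours, 62.9, 64.1, 58.4, 74.3 and 66.4 CPM in post-stress tumours and 81.6, 76, 73.9, 69.3 and 78.2 CPM in no-stress tumours. All stress tumours lay below all no-stress tumours, and TRAF3 fell to 0.698-fold of the no-stress level (log2 fold change −0.52, SE 0.10, adjusted p = 0.00579, edgeR). The share of all genes tested that lay wholly below in this way is not given here. BIRC2, which encodes cIAP1 and is the neighbour and relative of BIRC3, had 96.2, 120.0, 107, 91.8 and 98.6 CPM in stress tumours, 101, 101, 80.8, 89.5 and 87.3 CPM in post-stress tumours and 76.1, 80.0, 74.9, 83.9 and 72.3 CPM in no-stress tumours. It was 1.33-fold higher in stress than in no-stress tumours (log2 fold change 0.41, SE 0.08, adjusted p = 0.00736, edgeR), and leaving out no-stress tumours 1 and 5 as a pair ended the call (adjusted p = 0.0606). IRAK2, a kinase-like adaptor of interleukin-1 and Toll-like receptors, was 1.7-fold higher (43.1 ± 11.5 CPM in stress and 25.3 ± 6.02 CPM in no-stress tumours, SD, n = 5 each; log2 fold change 0.77, SE 0.20, adjusted p = 0.0236, edgeR). Leaving out no-stress tumour 3 or stress tumour 1 ended its call (adjusted p = 0.0639 and 0.0617).

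IKBKG, which encodes the regulatory subunit NEMO of the IκB kinase, was lower (11 ± 1.82 CPM in stress and 15.7 ± 2.07 CPM in no-stress tumours, SD, n = 5 each; log2 fold change −0.51, SE 0.13, adjusted p = 0.0213, edgeR). A near-identical pseudogene can share its reads, so that its level is uncertain, and leaving out no-stress tumour 1 or 3 or stress tumour 1 ended the call (adjusted p 0.054 to 0.0681). RELA, the p65 subunit that most often pairs with p50, was singled out after its values were seen. It had 102 ± 8.72 CPM in stress and 83.4 ± 6.79 CPM in no-stress tumours (SD, n = 5 each; log2 fold change 0.29, SE 0.08, adjusted p = 0.0246, edgeR). Leaving out no-stress tumour 1, 3 or 4 or stress tumour 1 or 3 ended its call (adjusted p 0.052 to 0.072). The other genes called higher, named to complete the count, were NFKBIE, MYD88, TRADD and RBCK1.

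Among 42 other NF-κB target genes of inflammation and survival, 41 were found in the table and 29 were tested. In stress against no-stress tumours 9 were called higher and 1 lower (31.0% and 3.45% of those tested, where 5.23% and 5.22% of all genes were called), with a median log2 fold change of 0.43, against −0.01 for all genes tested. These lists were written with earlier results of these data known. IL6, an inflammatory cytokine, had 57.7, 36.1, 55.3, 34.4 and 37.3 CPM in stress tumours, 34.8, 32.3, 21.8, 17.6 and 15.3 CPM in post-stress tumours and 12.5, 10.6, 6.81, 14.2 and 19 CPM in no-stress tumours. CXCL8, the neutrophil chemokine, had 914, 516, 596, 325 and 584 CPM in stress tumours, 394, 241, 374, 219 and 151 CPM in post-stress tumours and 229.6, 147, 122, 174 and 269 CPM in no-stress tumours. For both genes all stress tumours lay above all no-stress tumours, which was so for 4.09% of all genes tested (log2 fold changes 1.81 and 1.64, edgeR adjusted p = 0.00354 and 0.00814). TNFAIP8, an inhibitor of apoptosis induced by TNF, had 28.4 ± 3.75 CPM in stress and 18 ± 1.76 CPM in no-stress tumours (SD, n = 5 each; log2 fold change 0.65, SE 0.11, adjusted p = 0.00354, edgeR). With human and mouse counts scaled together the adjusted p of TNFAIP8 was 0.0873, and 3 of the targets were called.

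GADD45B, a stress-response gene that NF-κB induces, was the target gene called in both comparisons with no-stress tumours. GADD45B had 39.5, 40.4, 41.3, 39.2 and 75.8 CPM in stress tumours, 45, 51.9, 39.2, 30.8 and 25 CPM in post-stress tumours and 18.1, 21.9, 15.7, 17.4 and 22.7 CPM in no-stress tumours. Both restrained groups lay wholly above the no-stress group. Of all genes tested, 4.09% did so in stress tumours and 1.57% in post-stress tumours. GADD45B was 2.46-fold higher in stress (log2 fold change 1.30, SE 0.22, adjusted p = 0.00419, edgeR) and 2.00-fold higher in post-stress tumours than in no-stress tumours (log2 fold change 1.00, SE 0.22, adjusted p = 0.0491, edgeR). Leaving out single tumours ended the post-stress call in 12 of 15 cases (adjusted p 0.0539 to 0.141), the exceptions being post-stress tumours 4 and 5 and stress tumour 5. In stress against post-stress tumours none of the 29 was called (edgeR), and 7 had an unadjusted p under 0.05, as did 1716 of all 15435 genes tested. The other genes called in stress tumours, named to complete the count, were CXCL2, CSF1, CSF2, BCL2L1 and IER3, which were higher, and NINJ1, which was lower.

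Of the genes of cytokines that classically start the pathway, IL1A and IL1B were scarce in the tumour cells. IL1A averaged 1.46 ± 1.06 CPM in stress, 1.08 ± 0.639 CPM in post-stress and 1.71 ± 1.49 CPM in no-stress tumours, and IL1B 1.61 ± 0.919 CPM in stress, 1.27 ± 0.836 CPM in post-stress and 2.17 ± 1.91 CPM in no-stress tumours (SD, n = 5 each). Neither was called in stress against no-stress tumours (edgeR adjusted p = 0.856 and 0.696). The row of TNF had 0 counts in every library. TNF, IER3, LTB and CFB lie in the major histocompatibility complex, where alternative copies in a genome build can take reads, so that their levels are uncertain. The host's own cytokines were not analysed here.

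**Figure D5:**
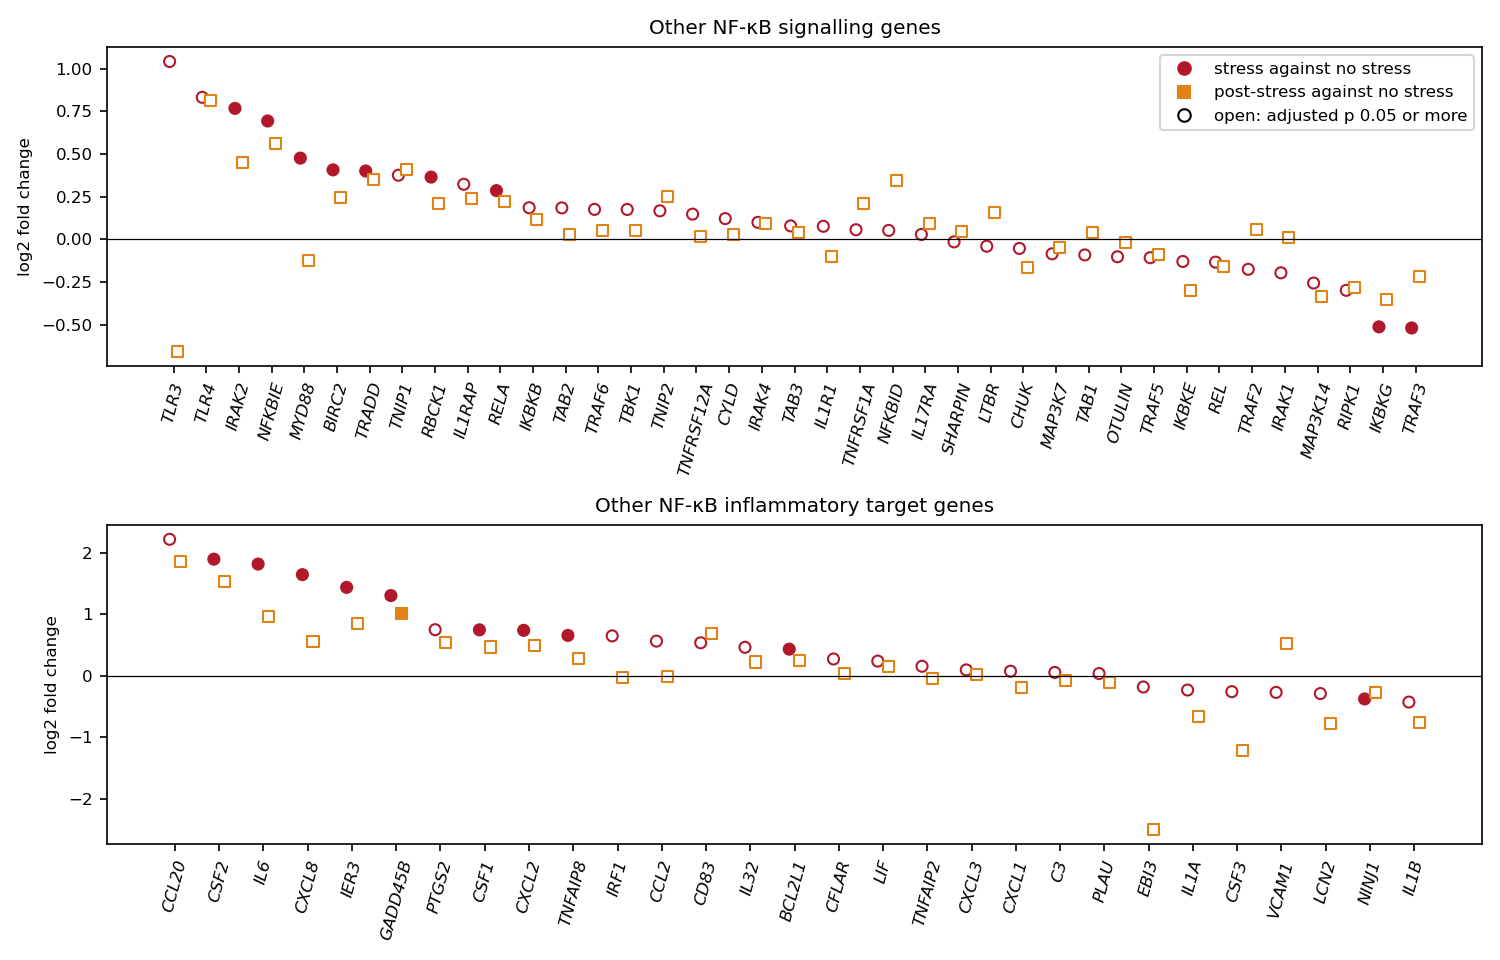
Log2 fold changes (vertical axes) of the tested NF-κB signalling genes (upper panel, 39 genes) and inflammatory target genes (lower panel, 29 genes) in stress tumours (circles) and post-stress tumours (squares) against no-stress tumours, filled where the adjusted p was under 0.05. Signalling genes lie mostly within 0.5 of 0, TRAF3 is at −0.52 in stress tumours, and among targets IL6 and CXCL8 stand at 1.81 and 1.64.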

How the data were processed

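RNA was measured in 15 xenograft tumours, 5 per group, grouped by sample title. Per the labels' protocols total RNA was isolated with TRIzol and made into RNA-seq libraries with an Abclonal kit. The table the authors deposited holds raw counts per gene. Per the submitters' processing notes the authors used Trimmomatic 0.39, HISAT2 2.2.1 and featureCounts 2.0.6 with the builds hg38 and mm10. For strandedness and annotation release nothing is stated, so antisense genes, near-identical copies and mouse reads on human genes cannot be separated.

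Of the 60649 human rows, 60463 had a symbol. All human rows were filtered with filterByExpr and TMM-scaled, and all 15 libraries entered 1 quasi-likelihood fit (edgeR 4.0.16, limma 3.58.1, R 4.3.3). SEs were taken as the absolute log2 fold change over the root of F. A gene was called at an adjusted p (Benjamini-Hochberg, over all human genes tested) under 0.05. No pair of libraries of a group agreed within sampling noise. Total counts per library were 16729091 to 19680449. Coordinates came from GENCODE 29. Alternatives were DESeq2 1.42.0 (size factors, Wald test), limma-voom, other filters, only the groups compared, both species scaled together, the replicate number as a block, a covariate for the mouse share, and leaving out each library.

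The members and gene lists were chosen with earlier results of these data known. Named were all members, up to 4 called genes per list and comparison by smallest p, and the 8 genes most like the members' mean z score. RELA and the genes named to complete counts were added after their values were seen.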

Additional observations from a re-analysis of the deposited data

Results flagged for a closer look

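TRAF1 stood at 17.1 CPM in post-stress replicate 4, far from the other 4 post-stress tumours, the nearest of which had 11.0 CPM. The gap was 0.924 of the range of the group, above the critical value of 0.71 for 5 samples. It was the only such value in 30 sets of 5 tumours (10 genes in 3 groups), and chance alone gives about 1 in 20 such sets.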

How the results depend on the processing

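In stress against no-stress tumours, 7 NF-κB genes were called and the count was 3 to 7 when single libraries were left out, 4 with no filter on low counts, 4 when only the groups compared were fitted and 2 with both species scaled together. NFKB2, BIRC3 and TRAF1 were called in each of the 15 fits without a library. Over all human genes the 1613 calls became 661 to 1834 without single libraries, 1200 with no filter and 1504 with only the groups compared. They became 124 with both species scaled together and 546 without no-stress replicates 1 and 5 together. The signalling count of 9 became 2 to 10 without single libraries, 0 with both species scaled together and 3 without that pair. The target count of 10 became 7 to 12 without single libraries and 3 with both species scaled together. That scaling moved the median log2 fold change of all genes to 0.14 in post-stress against no-stress and to −0.13 in stress against post-stress tumours, and the cause of the lower counts was not tested.

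In post-stress against no-stress tumours DESeq2's Wald test called 504 genes in place of 130, and 1 member, 1 signalling gene and 2 targets. Human genes called were 37 to 144 without single libraries, 49 with only the groups compared, 38 with the mouse share as a covariate, 29 with both species scaled together and 32 without no-stress replicates 1 and 5 together. Members called were 0 to 1 without single libraries, and with no filter 1 signalling gene was called. The target count of 1 (GADD45B) became 0 to 1 without single libraries. It was 0 with limma-voom, no filter, the covariate, both species scaled together, and without no-stress replicates 1 and 5 together. In stress against post-stress tumours the 6 genes became 203 with DESeq2's Wald test, 36 with no filter, 1 with only the groups compared, 0 with the covariate, 0 with both species scaled together and 0 to 189 without single libraries. Members were 1 with DESeq2's Wald test and 0 to 1 without single libraries, and signalling genes 2 and 0 to 2.

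Log2 fold changes that changed sign were all uncalled and close to 0. In stress against post-stress tumours both species scaled together gave −0.0385 for NFKB1, −0.0699 for NFKB2, −0.0753 for RELB, −0.0453 for NFKBIZ and −0.0493 for BCL3. The covariate gave −0.0813 for RELB, −0.0375 for NFKBIZ and −0.0306 for TNFAIP3. Without single libraries NFKB2 ran from −0.0304 to 0.119, RELB from −0.0678 to 0.115 and NFKBIZ from −0.0356 to 0.173, and NFKB1 in post-stress against no-stress tumours from −0.0408 to 0.0935.

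The labels do not say whether replicate numbers pair the tumours. Correlations of same-numbered tumours' deviations ran from −0.191 to 0.124, which shows no strong likeness but cannot settle whether they were paired. With the replicate number as a block, 7 NF-κB genes were called in stress against no-stress tumours. Over all human genes 990 were called in stress against no-stress, 57 in post-stress against no-stress and 0 in stress against post-stress tumours. Under the block 0 target genes were called in post-stress against no-stress tumours, and the adjusted p of RELA was 0.0524 in stress against no-stress tumours. The fewest counts lay behind ICAM1 and TRAF1, with 62 to 227 and 100 to 294 counts a library.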
